A study of Mus musculus with 12 samples.

Results

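The genes of membrane traffic were followed in kidney cortex of menopausal/diabetic and diabetic mice. Members were all clones of the array whose platform gene symbol begins as one of the following families: the numbered Rab GTPases, clathrin chains (Clt), adaptor subunits (Ap1 to Ap4), sorting nexins (Snx), vacuolar sorting genes (Vps), coatomer subunits (Cop), Sec genes, the small GTPases Arf1 to Arf6, and the SNAREs Vamp and Stx. The rule used names and no measured value. It found 171 of the 15600 clones, of which 167 carry 1 gene symbol and stand for 132 genes, and 4 carry several symbols and were left unnamed. After the dimmest clones were left out, 149 single-gene member clones remained, and 123 genes were tested among 9958 features in all (5871 named genes and 4087 clones with no single gene name). The other 18 single-gene member clones were too dim. They left 9 genes without a test: Rab5a, Snx5, Snx9, Stx8, Ap3b2, Copb2, Copg1, Rab3b and Rab30, none of them called detected on any of the 12 arrays.

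The 3 menopausal/diabetic mice had been given VCD, an agent that depletes ovarian follicles, and STZ (streptozotocin), which kills pancreatic beta cells. The 3 diabetic mice had been given STZ alone. Both groups were therefore diabetic, no mouse without diabetes or with VCD alone was compared here, and age, strain and doses are not given in the labels. RNA was taken 6 weeks after STZ, and each mouse was hybridised on 4 of 12 two-colour cDNA arrays, with 2 arrays per dye, against mice of either group.

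Endocytosis begins when the adaptor AP-2 gathers cargo and clathrin bends the membrane. Rab GTPases, sorting nexins, the retromer and the ESCRT machinery then send cargo from endosomes back to the surface, to the Golgi or to the lysosome. The secretory route runs the other way, through the Sec61 translocon into the endoplasmic reticulum, by COPII coats to the Golgi and by COPI coats back. In the kidney, proximal tubule cells depend on clathrin-mediated endocytosis through the receptor megalin (Lrp2) to recover filtered protein.

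The values below are log2 levels of a mouse relative to the mean of the 6 mice, estimated from its 4 arrays, so 0 is the average mouse and levels of different genes cannot be compared. A difference is the mean of the menopausal/diabetic mice minus that of the diabetic mice. For each member it equals the mean of the 6 arrays that pair a menopausal/diabetic with a diabetic mouse. Fewer cells of a type and less RNA per cell cannot be told apart in cortex RNA.

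Across the 12 arrays the median spot stood 25.3 to 209 intensity units above its background for Alexa Fluor 546 and 14.6 to 107 units for Alexa Fluor 647, and 30.5% to 57.4% of spots were called detected. Animal identifiers inside the files matched the titles on 11 of 12 arrays. The array titled diabetic 2 with diabetic 3 names another animal for both dyes. A pattern carried by diabetic mouse 3 would give a positive correlation between 2 of its arrays with the mouse in the same dye and a negative one in opposite dyes. Across features, the array of differing identifier correlated at 0.53 with the array against menopausal/diabetic mouse 2 (same dye) and at -0.48 with that against menopausal/diabetic mouse 1 (opposite dye). The array against diabetic mouse 1 correlated with these 3 arrays at -0.065 (opposite dye), 0.065 (opposite dye) and 0.13 (same dye). Diabetic mouse 3 had low levels of markers of several cell types. The proximal tubule genes Lrp2, Gatm, Miox and Slc22a7, each detected on 10 to 12 arrays, had levels of -0.86, -1.51, -1.21 and -1.08 in it, against 0.08 to 0.61 in the other 2 diabetic mice, and the distal tubule gene Calb1 had -1.28. It was also the lowest of the 6 mice, by less, for Podxl of podocytes (-0.34) and Emcn and Ehd3 of endothelium (-0.26 and -0.33). The same held for Dcn of fibroblasts (-0.24) and Lyz2 and C1qa of leukocytes (-0.27 and -0.22). It was not the lowest for Slc4a1 of the collecting duct (-0.08), which was detected on only 1 array. Diabetic mouse 3 was the highest of the 6 mice for Hbb-b1 and Alas2 of red cells (0.37 and 0.21) and for Star (0.14). Between the groups, 1 of the 19 cell type markers tested passed an unadjusted p of 0.05, Star of the adrenal gland, which was 0.17 lower in menopausal/diabetic mice (adjusted p = 0.618 by limma). The other adrenal marker tested, Cyp11a1, was detected on 0 arrays. It differed by 0.00064 between the groups and had a level of -0.0065 in diabetic mouse 3. The part of these shifts in the results below was not tested.

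No member differed between the groups after adjustment for the 9958 features. The smallest adjusted p among members was 0.618, and over all features it was 0.160, with 0 features under 0.05 by limma and 774 under an unadjusted 0.05. Of the 123 members, 13 (10.6%) passed the unadjusted threshold, where 7.77% of all features did. Of these, 7 were higher in menopausal/diabetic mice and 6 lower, where 4.23% of all features passed as higher and 3.54% as lower. The levels of the groups did not overlap for 22 members (17.9%), 12 higher and 10 lower, against 13.5% of all features. The median difference of members was 0.018, beside 0.00021 over all features. Members were measured with a median SE of 0.061, and the 95% confidence interval of the difference lay inside a 1.5-fold change either way for 120 of the 123 (97.6%), as for 95.4% of all features. The 3 members whose intervals reached beyond it were Snx29, Vps45 and Copa. The background step adds 50 intensity units, which narrows the ratios of dim spots. The intervals hold for the narrowed ratios, so they do not exclude a larger change in the RNA of a dim member.

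**Figure D1:**
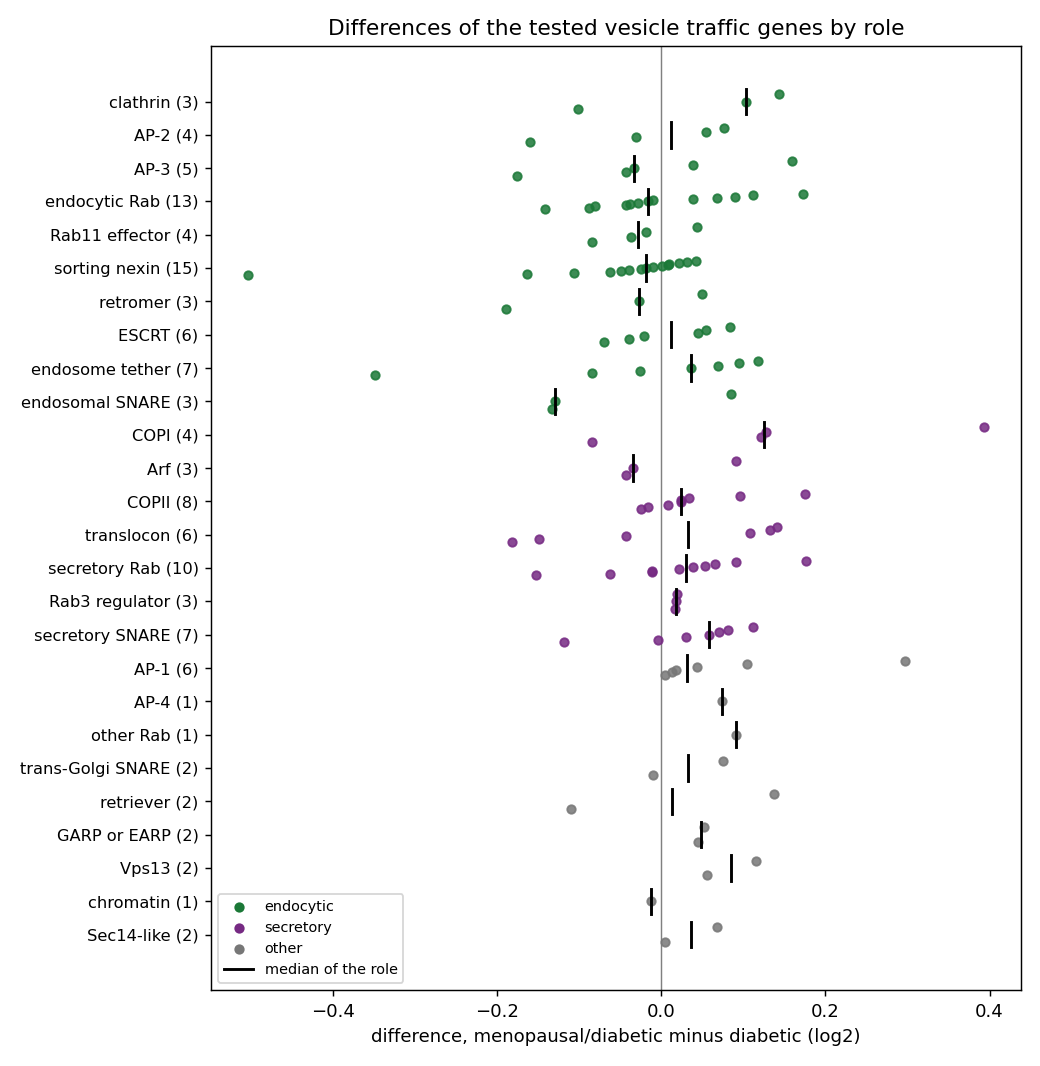
Differences between menopausal/diabetic and diabetic mice (log2, horizontal axis) of the 123 tested members, grouped by role, with the number of genes in brackets; each point is a gene and each black bar the median of the role. Most points lie within 0.2 of 0, and the points farthest out are Copa (COPI) at 0.39 and Snx29 (sorting nexin) at -0.50.

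The endocytic and secretory steps lay on opposite sides of 0 by small amounts. Of 63 endocytic genes tested, 27 had a positive and 36 a negative difference, with a median of -0.019, and 7 passed the unadjusted threshold (3 higher, 4 lower). Of 41 secretory genes, 27 had a positive and 14 a negative difference, with a median of 0.024, and 4 passed it (3 higher, 1 lower). The remaining 19 members, mostly of the trans-Golgi network, gave 16 positive and 3 negative differences with a median of 0.052. Mouse by mouse, the median level of endocytic genes was -0.0072, -0.0027 and -0.0054 in menopausal/diabetic mice 1 to 3, against -0.012, -0.00077 and 0.031 in diabetic mice 1 to 3. The median of secretory genes was 0.037, -0.0040 and 0.022 in menopausal/diabetic mice, against -0.025, 0.0038 and -0.032 in diabetic mice. The endocytic median minus the secretory median was -0.044, 0.0013 and -0.028 in menopausal/diabetic mice, against 0.013, -0.0046 and 0.063 in diabetic mice. The groups overlapped, since menopausal/diabetic mouse 2 lay above diabetic mouse 2. Without diabetic mouse 3 the secretory median difference was -0.0036, and without diabetic mouse 1 the endocytic median difference was 0.0056, so leaving out 1 mouse turned the sign of each.

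**Figure D2:**
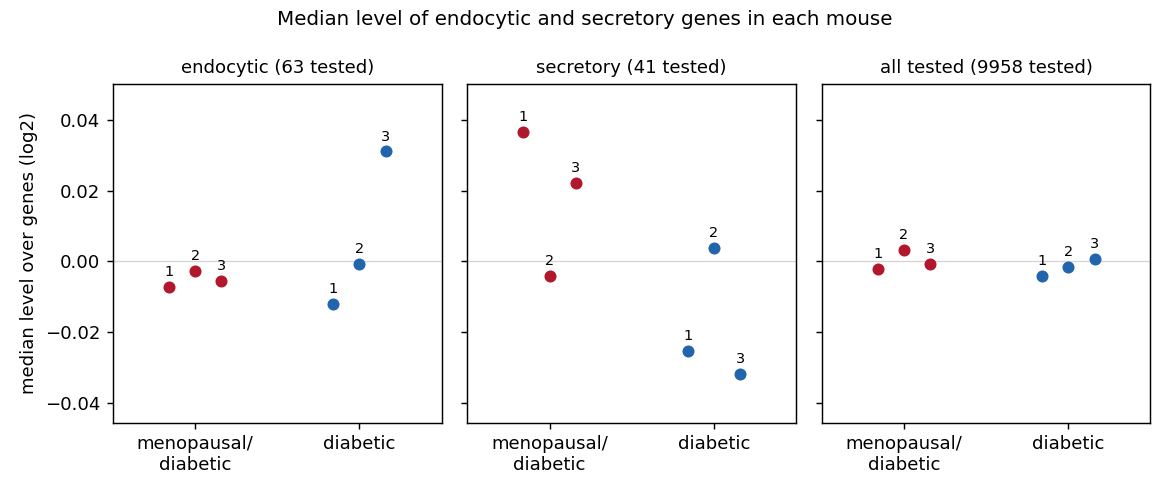
Median log2 level over the endocytic, the secretory and all tested features (vertical axis) in each menopausal/diabetic mouse (left) and diabetic mouse (right), with the mouse number above each point. Endocytic medians run from -0.012 to 0.031 and secretory medians from -0.032 to 0.037, and the medians of all tested features from -0.0040 to 0.0032.

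Clathrin is a lattice of heavy chains, encoded by Cltc, and light chains, encoded by Clta and Cltb. Cltc levels were 0.11, 0.04 and 0.06 in menopausal/diabetic mice 1 to 3, against -0.02, -0.13 and -0.07 in diabetic mice 1 to 3. All 3 menopausal/diabetic mice were above all 3 diabetic mice, with a difference of 0.14 ± 0.044 (SE) and an adjusted p of 0.618 by limma. Menopausal/diabetic mice gave the higher signal on 5 of the 6 arrays that pair the groups, and a second Cltc clone differed by 0.15. With 1 loess curve per array in place of 1 per print block the difference was 0.44, and without menopausal/diabetic mouse 1 it was 0.078. The 2 light chains differed in sign. Cltb levels were 0.03, 0.0018 and 0.12 in menopausal/diabetic mice, against -0.10, -0.0022 and -0.06 in diabetic mice, a difference of 0.10 ± 0.049 (adjusted p = 0.650 by limma), or 0.026 without menopausal/diabetic mouse 1. Clta differed by -0.10 ± 0.064 (adjusted p = 0.725), and its 2 dimmer clones by 0.059 and 0.021, so clones of this gene disagreed in sign.

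The AP-2 adaptor links clathrin to cargo, and its 4 measured subunits did not pass the test. Differences were 0.055 for Ap2a2, 0.076 for Ap2b1 (detected on 0 of 12 arrays), -0.031 for Ap2s1 and -0.16 ± 0.083 for Ap2m1, the cargo-binding subunit (adjusted p = 0.667 by limma). Ap2m1 levels were -0.03, 0.04 and -0.25 in menopausal/diabetic mice, against 0.16, 0.01 and 0.07 in diabetic mice, which overlapped. A second Ap2m1 clone differed by -0.00092, and with 1 loess curve per array the first differed by -0.038. The AP-3 complex carries cargo from endosomes to lysosomes. Its delta subunit Ap3d1 had levels of 0.15, -0.02 and 0.11 in menopausal/diabetic mice, against -0.10, -0.02 and -0.13 in diabetic mice, a difference of 0.16 ± 0.059 (adjusted p = 0.618 by limma). It was 0.079 without diabetic mouse 1 and -0.027, of opposite sign, without background correction. Ap3s1, a small subunit of AP-3, was lower in menopausal/diabetic mice on all 6 arrays that pair the groups (difference -0.18, adjusted p = 0.650).

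Among endosomal sorters, Snx3, a sorting nexin that works with the retromer, had the smallest p of the members that were lower. Its levels were -0.07, -0.09 and -0.09 in menopausal/diabetic mice, against 0.09, 0.0034 and 0.15 in diabetic mice. The groups did not overlap, the difference was -0.16 ± 0.049 (adjusted p = 0.618 by limma), and 5 of 6 arrays were lower. A second Snx3 clone differed by -0.017, and without diabetic mouse 3 the difference of the first was -0.066. The retromer subunit Vps29 had levels of -0.12, -0.19 and 0.03 in menopausal/diabetic mice, against 0.10, -0.01 and 0.20 in diabetic mice, a difference of -0.19 ± 0.078 (adjusted p = 0.636), or -0.10 with 1 loess curve per array. Its partners Vps26a and Vps35 differed by 0.049 and -0.027. Over the 15 sorting nexins tested, 6 differences were positive and 9 negative, with a median of -0.018. The ESCRT machinery sorts receptors into vesicles inside late endosomes. Its 6 measured genes within the naming rule, Vps4a, Vps4b, Vps25, Vps28, Vps37a and Vps37c, had 3 positive and 3 negative differences between -0.070 and 0.084, none past the test. Genes of this machinery outside the rule also did not pass adjustment. Chmp2b, Chmp2a, Pdcd6ip, Stam2 and Chmp6 differed by -0.29, -0.21, -0.18, -0.041 and -0.025, and Chmp3, Chmp4b and Chmp5 by 0.087, 0.025 and 0.021.

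The 2 endocytic genes with the largest differences in size shared an array with an extreme ratio. Snx29, detected on 0 of 12 arrays, had levels of -0.58, -0.17 and -0.0054 in menopausal/diabetic mice, against 0.15, 0.58 and 0.03 in diabetic mice, a difference of -0.50 ± 0.19 (adjusted p = 0.618 by limma). The array of menopausal/diabetic mouse 1 with diabetic mouse 2 read -2.86 (log2, menopausal/diabetic over diabetic), and the other 5 read -0.052 to -0.0093. The difference was -0.024 without menopausal/diabetic mouse 1 and -0.028 without diabetic mouse 2. Vps45, which controls SNAREs of endosomes and was detected on 3 arrays, differed by -0.35 ± 0.11 (adjusted p = 0.618), with -1.40 on that same array and -0.36 to 0.046 on the other 5, of which 4 were negative. It was -0.16 without menopausal/diabetic mouse 1, -0.18 without diabetic mouse 2 and -0.19 when spots marked by the scanner were left out.

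Rab GTPases mark the compartments of both routes. Of 13 endocytic Rabs tested, 5 differences were positive and 8 negative, with a median of -0.016. The late endosomal Rab7 differed by -0.0096 and the recycling Rabs Rab11a and Rab11b by -0.029 and 0.038. With 1 loess curve per array Rab11a and Rab11b read -0.22 and 0.21, and a second Rab11a clone read 0.033. Rab14, which acts between the Golgi and endosomes, had levels of 0.13, 0.03 and 0.10 in menopausal/diabetic mice, against -0.09, 0.02 and -0.19 in diabetic mice. Its groups did not overlap, with a difference of 0.17 ± 0.063 (adjusted p = 0.618 by limma), and 0.048 in a second clone. It was 0.088 without menopausal/diabetic mouse 3 and 0.053 without background correction. Rab20 and Rab22a were higher in menopausal/diabetic mice on all 6 arrays that pair the groups, by 0.11 and 0.090 on average. Members read one way on all 6 arrays in 6 cases (4.88%), 3 higher and 3 lower, against 3.97% of all features. Rab24, of autophagy and late endosomes, was lower, with levels of -0.02, -0.15 and -0.05 in menopausal/diabetic mice, against -0.0069, 0.06 and 0.16 in diabetic mice. Its groups did not overlap, with a difference of -0.14 ± 0.061 (adjusted p = 0.640 by limma), or -0.049 without diabetic mouse 3. Of 10 secretory Rabs, 6 differences were positive and 4 negative. Rab13, a Rab of epithelial junctions, had levels of -0.13, -0.03 and -0.07 in menopausal/diabetic mice, against -0.0042, -0.01 and 0.25 in diabetic mice. Its groups did not overlap, with a difference of -0.15 ± 0.079 (adjusted p = 0.667), lower on 5 of 6 arrays and -0.060 without diabetic mouse 3. Rab3d, a Rab of secretory granules detected on 5 arrays, had levels of 0.0026, 0.19 and 0.07 in menopausal/diabetic mice, against -0.07, -0.07 and -0.12 in diabetic mice, a difference of 0.18 ± 0.057 (adjusted p = 0.618). Its array of menopausal/diabetic mouse 2 with diabetic mouse 3 read 0.92, and the other 5 read -0.16 to 0.15. Without menopausal/diabetic mouse 2 the difference was 0.011, and without diabetic mouse 3 it was 0.070. Rab1a, Rab1b and Rab6a, which serve the step from the endoplasmic reticulum to the Golgi and within it, differed by 0.065, -0.011 and 0.053.

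On the secretory side, the 6 genes of the translocon and signal peptidase had 3 positive and 3 negative differences, with a median of 0.033. Sec61a1, the channel subunit, was higher in menopausal/diabetic mice on all 6 arrays that pair the groups, with a difference of 0.14 ± 0.11 (adjusted p = 0.787 by limma). Its levels overlapped, at -0.07, 0.05 and 0.23 in menopausal/diabetic mice, against 0.07, -0.01 and -0.27 in diabetic mice, and without menopausal/diabetic mouse 3 the difference was 0.034. Without background correction it was 0.019. Sec11c, a subunit of the signal peptidase, was lower in menopausal/diabetic mice on all 6 of these arrays, with a difference of -0.15 ± 0.10 (adjusted p = 0.749), or -0.038 without diabetic mouse 3. Sec61a2, a second form of the channel subunit, had levels of 0.07, 0.0095 and 0.08 in menopausal/diabetic mice, against -0.03, -0.06 and -0.07 in diabetic mice, a difference of 0.11 ± 0.039 (adjusted p = 0.618). Sec61g, a small subunit of the same channel, had -0.17, -0.15 and 0.04 in menopausal/diabetic mice, against 0.05, 0.04 and 0.19 in diabetic mice, a difference of -0.18 ± 0.073 (adjusted p = 0.624). With 1 loess curve per array, Sec61a2 was -0.0061 and Sec61g 0.033, so both had the opposite sign. Among secretory SNAREs, which fuse vesicles with their target, 5 differences were positive and 2 negative, with a median of 0.058. Stx2, a SNARE of the cell surface, had the smallest p among them (difference 0.11, adjusted p = 0.618), but the difference was 0.024 without diabetic mouse 1 and 0.0085 with 1 curve per array.

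COPI and COPII coats carry vesicles between the endoplasmic reticulum and the Golgi. Copa, the alpha subunit of COPI, had the largest positive difference of the members. Its levels were 0.28, 0.0099 and 0.30 in menopausal/diabetic mice, against -0.20, 0.15 and -0.53 in diabetic mice. The groups overlapped, the difference was 0.39 ± 0.17 (adjusted p = 0.645 by limma), and without diabetic mouse 3 it was 0.21. Copg2 and Copz1 differed by 0.13 and 0.12 and were also lowest in diabetic mouse 3, at -0.34 and -0.22. Copg2 read -0.029, of opposite sign, without diabetic mouse 3, and Copz1 0.016 without menopausal/diabetic mouse 1. Cope, another COPI subunit, differed by -0.085 ± 0.045 (adjusted p = 0.671), and a second Cope clone by 0.037. Of 8 COPII genes tested, 6 differences were positive and 2 negative, with a median of 0.024. The outer coat gene Sec31a had levels of 0.23, -0.07 and 0.10 in menopausal/diabetic mice, against -0.13, 0.16 and -0.29 in diabetic mice, a difference of 0.17 ± 0.13 (adjusted p = 0.772), or 0.054 without diabetic mouse 3 and 0.024 with 1 loess curve per array.

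At the trans-Golgi network, where secretory and endosomal routes meet, AP-1 makes clathrin coats. All 6 AP-1 subunits tested had positive differences, with a median of 0.031. Those of Ap1b1, Ap1m1 and Ap1s1 were 0.0048, 0.013 and 0.018, and their sign turned when 1 mouse was left out. Without diabetic mouse 2 Ap1b1 read -0.028, and without diabetic mouse 3 Ap1m1 and Ap1s1 read -0.069 and -0.020. The 1 subunit that passed the unadjusted threshold was Ap1g1, the gamma subunit, which had the smallest p of any member. Its levels were 0.14, 0.26 and 0.05 in menopausal/diabetic mice, against -0.13, -0.07 and -0.25 in diabetic mice. All menopausal/diabetic mice were above all diabetic mice, with a difference of 0.30 ± 0.073, a 1.23-fold ratio, and an adjusted p of 0.618 by limma. On the 6 arrays that pair the groups the log2 ratio ran from -0.14 to 0.74, positive on 4. A second Ap1g1 clone differed by 0.19, and its levels over the 6 mice correlated with those of the first at 0.85. Leaving out each mouse in turn gave 0.23 to 0.39. With 1 loess curve per array the difference was 0.17, and without background correction it was 0.18. Vps26c, a subunit of the retriever complex that recycles cargo to the surface, differed by -0.11 ± 0.042 (adjusted p = 0.621), and a second clone by 0.034. It was -0.058 without menopausal/diabetic mouse 1 and 0.029, of opposite sign, with the deposited ratios. Vps35l, the other retriever subunit tested, differed by 0.14, higher on 5 of the 6 arrays that pair the groups. Without diabetic mouse 3 its difference was 0.046.

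**Figure D3:**
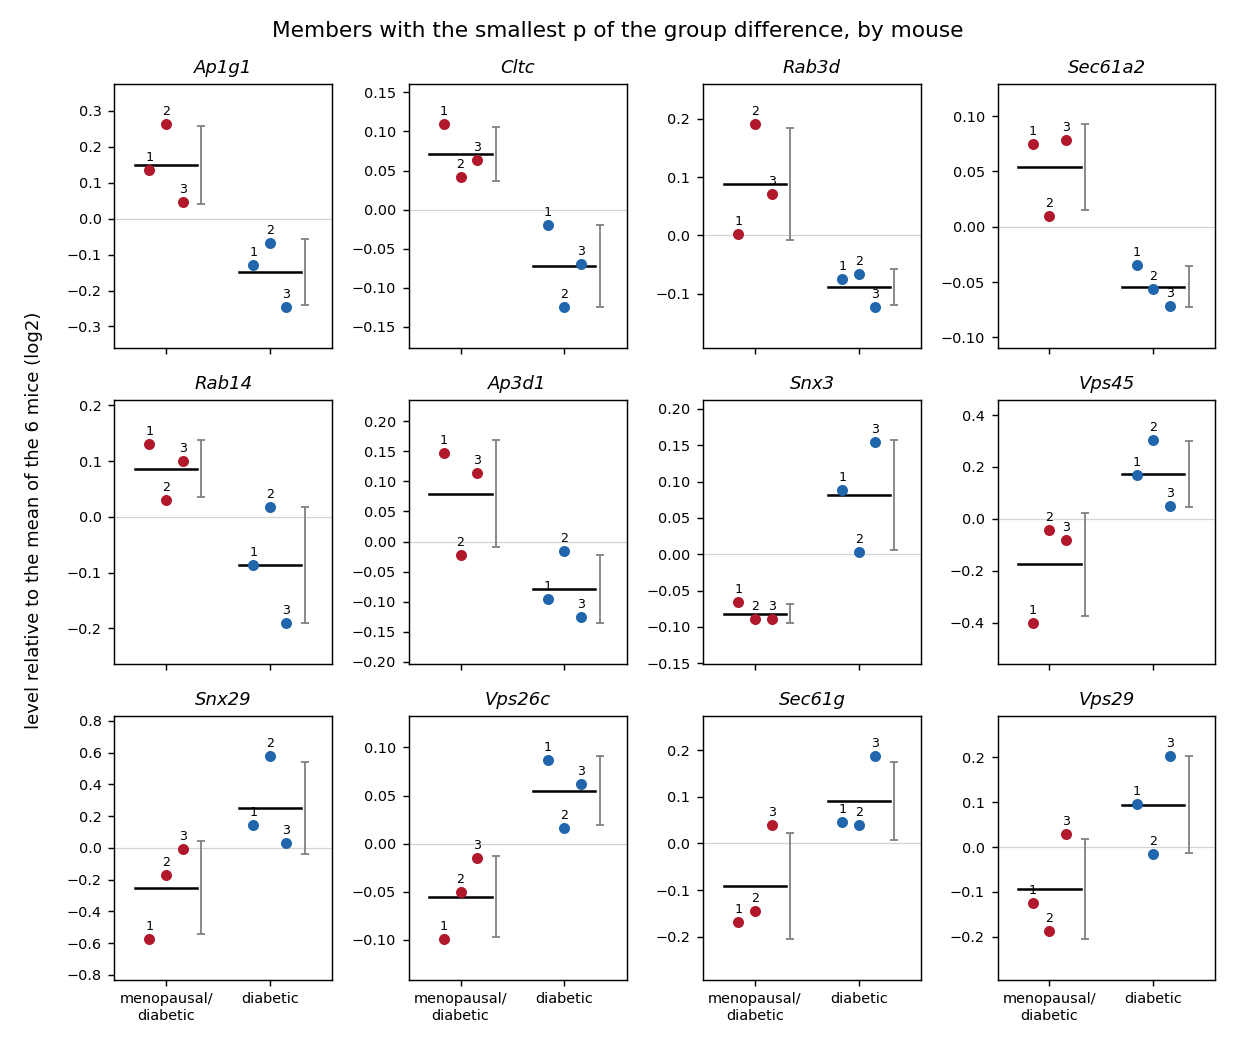
Log2 level relative to the mean of the 6 mice (vertical axis, scaled per gene) in menopausal/diabetic mice (left, red) and diabetic mice (right, blue) for the 6 members with the smallest p among those higher in menopausal/diabetic mice and the 6 among those lower. Numbers are mice, bars are means and grey whiskers the SD (n = 3 each). Groups are separate for Ap1g1, Cltc and Snx3, overlap for Ap3d1 and Vps29, and mouse 1 of the menopausal/diabetic group lies far below the others for Snx29 and Vps45.

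Clones of a gene give a second reading of the same transcript. Among members, 23 genes had more than 1 clone bright enough, which made 26 pairs of the brightest clone with another. The differences had the same sign in 16 of the 26 pairs (61.5%), as in 60.7% of the 1742 such pairs over all genes. The sizes of the group difference were close for the clones of Cltc, Rab18 (0.091 and 0.087), Vps41 (0.068 and 0.072) and Snx8 (0.043 and 0.053), and far apart for Rab3gap1, whose clones differed in sign (0.020 and -0.24). The levels of the 2 clones over the 6 mice correlated at 0.096 for Vps41, with a median of 0.34 over the 26 pairs. The correlations ran from -0.69 for Cope to 0.96 for a pair of Copz1 clones. Those of Vps26c, Vps26a and Vps37a were each -0.61.

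Where a clone lay on the slide touched some members. With 1 loess curve per array, 31.3% of features in the 3 print blocks of the upper left corner passed an unadjusted p of 0.05, against 7.03% elsewhere. With 1 curve per block these shares were 14.4% and 7.38%, and the median residual SD was 0.148 in place of 0.180. The 4 members in those blocks, Arf1, Ap2b1, Sec61g and Stx12, all had a higher signed difference with 1 curve per array. Arf1 read 0.32 in place of -0.035 and Ap2b1 0.16 in place of 0.076, while Sec61g read 0.033 in place of -0.18 and Stx12 -0.091 in place of -0.13, so the last 2 were smaller in size. Over all members the sign was the same under both for 104 of 123.

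**Figure D4:**
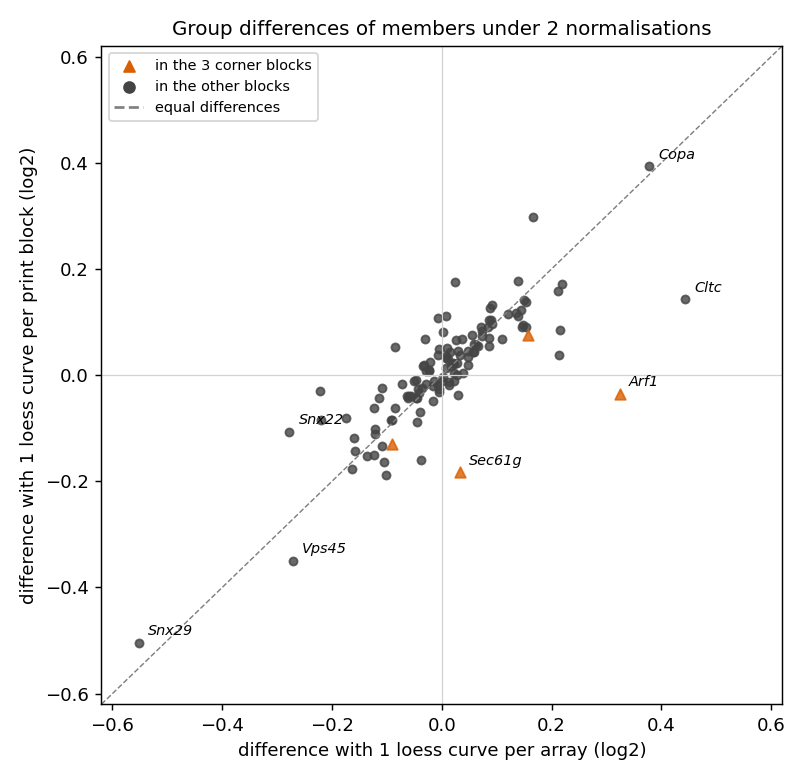
Difference between menopausal/diabetic and diabetic mice (log2) of each of the 123 tested members with 1 loess curve per array (horizontal axis) and 1 per print block (vertical axis); triangles are the 4 members in the 3 corner blocks and the dashed line marks equal values. Cltc reads 0.44 and 0.14, Arf1 0.32 and -0.035, while Copa, Vps45 and Snx29 lie near the line.

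Mice of the same group were compared next, by moderated F tests on the arrays, whose error is that between arrays. Among diabetic mice 272 features (2.73%) passed an adjusted p of 0.05, and none of the 123 members did. At an unadjusted 0.05, 17 members (13.8%) passed, where 14.8% of all features did. The 4 members with the smallest p were Sec24c, Copa, Rab29 and Rab11fip3. Sec24c, a cargo adaptor of COPII, had levels of -0.11, -0.13 and 0.27 in diabetic mice 1 to 3 (adjusted p = 0.0667 by limma). Copa had -0.20, 0.15 and -0.53 (adjusted p = 0.0672). Rab29, a Rab of the Golgi and lysosomes, had -0.14, -0.09 and 0.29 (adjusted p = 0.0882), and Rab11fip3, which carries Rab11 vesicles, had 0.01, 0.15 and -0.14 (adjusted p = 0.0991). Diabetic mouse 3 was the highest or the lowest of its group in all 4, as it was for 99 of the 123 members (80.5%) and 74% of all features. Its 4 arrays agreed for some of these genes and not for others. For Copa the log2 ratio of mouse 3 to its partner was -1.02 and -0.38 against menopausal/diabetic mice 2 and 1 and -1.09 and 0.12 against diabetic mice 2 and 1. For Rab29 it was 0.44, 0.39, 0.19 and 0.37 in the same order, positive on each, and for Rab11fip3 -0.17, -0.030, -0.37 and -0.074, negative on each. For Sec24c it was 0.51, -0.0091, 0.71 and 0.023, near 0 on 2 of the arrays. Without the array whose identifier differs from its title, the adjusted p was 0.375 for Sec24c, 0.464 for Copa, 0.0523 for Rab29 and 0.423 for Rab11fip3.

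Among menopausal/diabetic mice, 547 features (5.49%) passed an unadjusted p of 0.05 and 1 an adjusted one, and 4 members (3.25%) passed the unadjusted threshold. These were Rab11b, Rab8a, Vps72 and Rab11fip3, each with an adjusted p of 0.891 by limma. Rab11b had levels of 0.07, 0.14 and -0.15 in menopausal/diabetic mice 1 to 3, lowest in mouse 3. Rab8a, which carries vesicles from the Golgi to the surface, had -0.13, 0.08 and 0.03, lowest in mouse 1. Vps72 is a subunit of chromatin remodelling complexes that shares the Vps name, and had 0.06, -0.12 and 0.04.

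**Figure D5:**
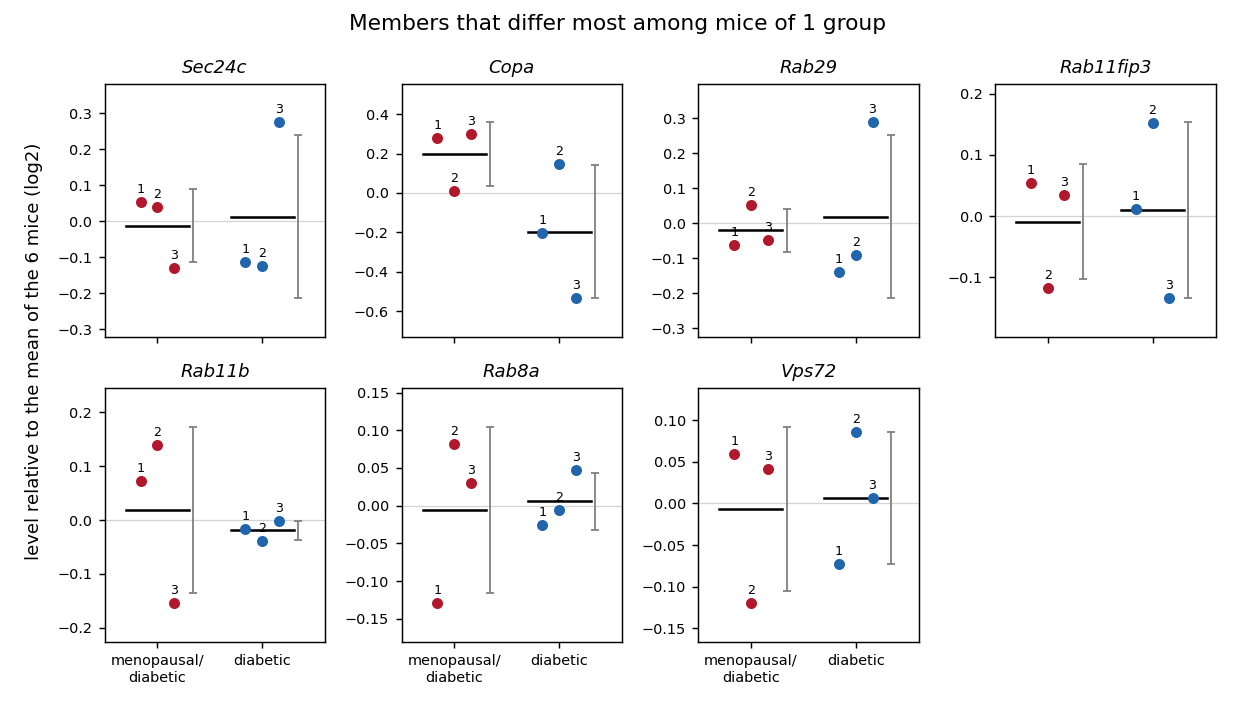
Log2 level relative to the mean of the 6 mice (vertical axis, scaled per gene) in menopausal/diabetic mice (left, red) and diabetic mice (right, blue) for the members that differed most among mice of 1 group; numbers are mice, bars means and grey whiskers the SD (n = 3 each). Diabetic mouse 3 is at the end of its group for Sec24c, Copa, Rab29 and Rab11fip3, at 0.27, -0.53, 0.29 and -0.14.

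Genes of the same routes whose names lie outside the rule were also compared. Of 194 such genes listed, 118 were tested, with 55 positive and 63 negative differences and a median of -0.0055. The 70 secretory genes had 33 positive and 37 negative differences (median -0.0053), and the 37 endocytic genes 18 and 19 (median -0.0023). The 11 genes of the Rab cycle had 4 positive and 7 negative differences (median -0.0095). Of the 118, 7 (5.93%) were under the unadjusted threshold, where 7.77% of all features were. These were 4 higher and 3 lower, none of them past adjustment. The higher ones were Tmed3 (0.27), Golga4 (0.22), Arfip1 (0.19) and Cav1 (0.14), and the lower ones Sh3glb1 (-0.31), Pdcd6ip (-0.18) and Bcap31 (-0.12). Among diabetic mice 4 of the 118 passed the adjusted test, a share of 3.39% beside 2.73% of all features, and they are named here because they passed. Megalin, Lrp2, had levels of 0.33, 0.08 and -0.86 in diabetic mice 1 to 3 (adjusted p = 0.00632 by limma), and the log2 ratio of mouse 3 to its partner lay between -1.29 and -0.91 on all 4 arrays. Chmp2a and Chmp2b, subunits of ESCRT-III, which pinches vesicles into late endosomes, had levels of 0.41 and 0.47 in mouse 3, against -0.09 to -0.0027 in the other 2 diabetic mice (adjusted p = 0.0134 and 0.00689). Yif1a, a membrane protein of the early secretory route, had -0.10, 0.06 and 0.47 (adjusted p = 0.00407). In the 3 menopausal/diabetic mice Lrp2 lay between 0.04 and 0.24. Without the array of differing identifier the adjusted p was 0.0568 for Lrp2, 0.0594 for Chmp2a, 0.0725 for Chmp2b and 0.0374 for Yif1a. With 1 curve per array it was 0.00650 for Lrp2, and 0.0925, 0.249 and 0.433 for Chmp2a, Chmp2b and Yif1a.

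The promoters of the members were read for short motifs, as a feature that the rule did not use. RefSeq promoters of mouse build GRCm38.p6, 250 bases before to 50 after each start, were matched by symbol for 104 of the 123 members, and a gene counted if any of its promoters held the motif on either strand. CACGTG, an E-box bound by TFEB and related regulators of lysosomal genes, was found for 8 of 52 endocytic genes (15.4%), 4 of 38 secretory genes (10.5%) and 4 of the 14 other members (28.6%), and for 8.09% of the 27025 genes in the table. TGACGTG, a sequence bound by XBP1 and ATF6 in the response to unfolded protein, was found for 0 of 52 endocytic and 3 of 38 secretory genes (7.89%), Arf1, Sec24d and Stx5a, and for 2.22% of all genes. It shares ACGTG with the E-box but no match of one is a match of the other. CCAAT and CCACG with 9 bases between them, the spacing of the endoplasmic reticulum stress element, was found for 0 of the 104 members and for 0.137% of all genes. The table is not limited to the genes tested here, and promoters per gene were not matched, so an excess over it was not tested. The promoters of an endocytic pair and a secretory pair are shown, 5′ to 3′ in the direction of the gene, to let the letters around the motifs be seen, with the motif in capitals. Ap2m1 lies at chr16:20535230-20535529 (plus strand) and Rab24 at chr13:55321931-55322230 (minus strand), both with the E-box. Arf1 lies at chr11:59228218-59228517 (minus strand) and Sec24d at chr3:123267246-123267545 (plus strand), both with TGACGTG; the table holds 2 promoters for Arf1, and the one with the motif is shown.
Ap2m1: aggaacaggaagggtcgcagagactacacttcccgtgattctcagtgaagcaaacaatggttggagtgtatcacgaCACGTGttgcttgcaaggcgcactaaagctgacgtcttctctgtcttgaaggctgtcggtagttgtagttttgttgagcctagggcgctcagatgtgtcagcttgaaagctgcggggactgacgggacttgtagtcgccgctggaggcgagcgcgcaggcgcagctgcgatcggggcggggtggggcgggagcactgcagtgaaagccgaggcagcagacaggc
Rab24: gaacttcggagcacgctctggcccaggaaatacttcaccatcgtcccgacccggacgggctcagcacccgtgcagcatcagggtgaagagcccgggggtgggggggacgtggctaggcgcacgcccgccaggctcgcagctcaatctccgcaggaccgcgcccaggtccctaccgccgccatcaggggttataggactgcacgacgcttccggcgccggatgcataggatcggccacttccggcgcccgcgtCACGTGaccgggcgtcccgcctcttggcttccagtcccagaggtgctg
Arf1: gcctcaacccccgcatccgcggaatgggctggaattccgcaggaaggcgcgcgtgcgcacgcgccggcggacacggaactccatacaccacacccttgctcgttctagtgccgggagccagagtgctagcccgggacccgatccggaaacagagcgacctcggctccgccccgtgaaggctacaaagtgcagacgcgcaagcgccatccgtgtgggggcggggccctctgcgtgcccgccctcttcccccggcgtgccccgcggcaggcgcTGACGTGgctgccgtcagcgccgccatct
Sec24d: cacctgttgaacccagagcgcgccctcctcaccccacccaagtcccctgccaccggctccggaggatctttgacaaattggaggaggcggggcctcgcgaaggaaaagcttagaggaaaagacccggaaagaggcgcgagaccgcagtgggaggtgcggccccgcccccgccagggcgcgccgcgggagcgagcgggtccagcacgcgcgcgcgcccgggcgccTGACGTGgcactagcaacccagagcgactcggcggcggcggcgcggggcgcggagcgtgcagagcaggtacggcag
The group differences of these 4 genes were -0.16 for Ap2m1, -0.14 for Rab24, -0.035 for Arf1 and -0.016 for Sec24d, and none passed the test. The other endocytic genes with the E-box differed by 0.11 (Rab20), 0.049 (Vps26a), 0.043 (Snx8), -0.016 (Rab21), -0.026 (Vps33a) and -0.084 (Vps16). Stx5a, which also holds TGACGTG, differed by 0.070, so members with either motif differed in sign.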

How the data were processed

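Cortex RNA of 6 mice, 3 per group, was amplified, labelled with Alexa Fluor 546 or 647 and hybridised to 12 arrays, per the labels' protocols. The authors deposited scanner files, which per the file headers hold, for either channel, a spot's mean intensity and the median intensity around it, and a table of log2 ratios. How the authors normalised the deposited log2 values is not stated by the labels or headers. Over the brighter spots, 0 of its 12 columns correlated best with the array of the same name, while each matched a different array (Spearman correlation 0.665 to 0.945), so the scanner files were used and the deposited log2 ratios, matched in this way, served as an alternative.

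Each array holds 31200 spots in 48 print blocks, with 15600 clones in adjacent pairs. Platform numbers were counted from the bottom of the slide: the 164 ribosomal protein clones then have a mean brightness percentile of 87.2, against 49.5 in file order. Of the spots, 18382 have 1 gene symbol. Using limma 3.58.1 under R 4.3.3, background was removed by normexp with an offset of 50, which narrows ratios of dim spots. Ratios were then normalised by loess within each print block. Values of a clone's 2 spots were averaged, the dimmest 25% of clones left out, and the brightest clone stood for its gene. The 12 ratios were fitted to 1 level per mouse and a dye term, and the 6 levels compared 3 against 3 in a two-sided test with lmFit and eBayes, adjusted by Benjamini-Hochberg, at 0.05. This test was tried on simulated data. An exact permutation of 3 against 3 mice cannot go below p = 0.1, so none is given. That mice are separate animals is read from the titles. The p-values of the group test rest on the spread between these mice. Those of the F tests among mice of a group rest on the error between arrays.

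Genes given with values are the members of the clathrin, AP-2, retromer, ESCRT, COPI, COPII and translocon groups and core Rabs that the text describes, the 6 members with the smallest p in each direction, the 4 with the smallest p among mice of each group, and those with several clones. Other members are named as parts of a complex or family, for reading all 6 arrays one way, or for slide position, clones or promoters. They were chosen after their values were seen. Members and lists were chosen with earlier results of these data known. Replicate numbers were checked for pairing: deviations of same-numbered mice of the 2 groups correlated at -0.035, -0.29 and -0.12 across features. Alternatives are in the closing section.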

Additional observations from a re-analysis of the deposited data

How the results depend on the processing

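No setting brought a member past an adjusted p of 0.05 between the groups among the 19 members whose differences were followed. Over all features, 0 passed by default, with the replicate block (665 at an unadjusted p of 0.05, 9 of them members) and under most other settings, against 56 with the 12 arrays as replicates, 1 with the 6 arrays between groups, and 0 to 3 when a mouse was left out (3 without diabetic mouse 2). At an unadjusted p, leaving out a mouse gave 564 to 1248 features (1248 without diabetic mouse 2) and 5 to 18 of the 123 members. With 1 loess curve per array 8 of the 123 members passed it. Under that setting 31.3% of features in the 3 corner blocks and 7.03% elsewhere did. No excess or lack of members is read from these counts. The 272 features among diabetic mice became 144 with 1 curve per array, 81 without background correction, 77 with the deposited log2 ratios and 59 without the array of differing identifier, a setting chosen after seeing the data. The 1 feature among menopausal/diabetic mice became 0 with 1 curve per array, without background correction, with the mean of a gene's clones and with the deposited ratios. The median difference of all members was 0.0084 with 1 curve per array, -0.0014 without background correction, 0.0056 with the deposited ratios, and -0.0043 to 0.031 when a mouse was left out. That of secretory members was 0.0037 without background correction, 0.0018 with the deposited ratios and -0.0036 to 0.046 without a mouse, and that of endocytic members -0.030 to 0.0056. Of the followed members, Cltb (-0.0043) and Ap3d1 (-0.027) changed sign without background correction, Sec61a2 (-0.0061) and Sec61g (0.033) with 1 curve per array, and Vps26c (0.029) with the deposited ratios. Without background correction another 12 of the 19 kept their sign but were smaller by over 1.5 times. The causes were not tested. Low signal limits what these arrays can show, since 18 tested members (14.6%) were detected on at most 3 arrays, as were 35% of all features.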
